A study of Homo sapiens with 24 samples.

Results

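The secreted inflammatory signals examined here were 10 genes, namely the chemokines CCL2, CXCL1, CXCL2, CXCL3, CXCL5 and CXCL8 (IL8), the interleukin-6 family cytokines IL6 and LIF, and the interleukin-1 cytokines IL1A and IL1B. They were taken by gene name and chosen by the Dox response of CCL2 in Tet-PTF1a cells, which stood among the stronger inductions, so the values of all members in that comparison are given as a description with no test. Of the 10 members, 5 had a row among the 14413 genes of the 3 tables, and only 4 of these (CCL2, CXCL1, CXCL8 and LIF) had a row in all tables. CXCL5 had a row in the Tet-PTF1a table alone, and CXCL2, CXCL3, IL6, IL1A and IL1B were not analysed here.

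Polyadenylated RNA was sequenced from Panc-1 cells, an established human line derived from a pancreatic ductal carcinoma, after 72 h without (Control) or with 1 µg/ml doxycycline (Dox). Tet-One cells carried the empty inducible plasmid, Tet-MIST1 cells a myc-tagged rat MIST1 open reading frame, and Tet-PTF1a cells a myc-tagged mouse PTF1a open reading frame, each under a Dox-responsive promoter. Every line was a puromycin-selected clone grown in serum depleted of tetracycline, Tet-One and Tet-PTF1a at passage 32 and Tet-MIST1 at passage 33, with 4 Control and 4 Dox libraries per line and 24 in all. Differences between lines therefore cannot be told apart from differences between clones, passages or rounds of library preparation, and replicates of a line are repeats of the same clone.

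CCL2 is a CC chemokine that draws monocytes through its receptor CCR2, whereas CXCL1, CXCL2, CXCL3, CXCL5 and CXCL8 carry a glutamate-leucine-arginine motif and draw neutrophils through CXCR1 and CXCR2. LIF and IL6 signal through the shared receptor chain IL6ST (gp130), paired with LIFR or IL6R, to JAK kinases and STAT3, and IL1A and IL1B signal through IL1R1 and IL1RAP to NF-kappaB, a transcription factor family that activates many of these same genes. In pancreatic cancer such factors are produced by tumor cells and by the surrounding stroma. MIST1 and PTF1a are basic helix-loop-helix factors of acinar cells that bind the E box, and PTF1a acts in a complex that also contacts a neighbouring TC box.

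The ELR chemokine genes lie together on chromosome 4, and their upstream sequences carry a recognisable NF-kappaB motif. The 3 stretches printed here belong to the ELR chemokines that were measured, and are shown because CXCL1 and CXCL8 shared the motif but not their order across the lines. They come from the RefSeq promoter entries of build GRCh38.p14, in which 8 of the 10 members matched, CCL2 and LIF being the others. Each is written 5′ to 3′ along the gene's strand, and the capitals mark the match to the kappaB motif GGANTTTCC.
CXCL1, chr4:73869303-73869382, + strand: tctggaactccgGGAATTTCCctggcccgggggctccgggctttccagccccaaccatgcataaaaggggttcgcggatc
CXCL5, chr4:73998700-73998779, - strand: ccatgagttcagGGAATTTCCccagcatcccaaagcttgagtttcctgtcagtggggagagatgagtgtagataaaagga
CXCL8, chr4:73740466-73740545, + strand: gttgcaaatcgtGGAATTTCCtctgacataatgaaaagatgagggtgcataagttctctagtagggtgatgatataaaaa

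The motif began 78 bases before the annotated start of CXCL1, 90 before that of CXCL5 and 91 before that of CXCL8. It was also found in the entries of CXCL2, CXCL3 and IL6 but not in those of IL1A and IL1B, against 1.45% of all 35116 promoter entries when the 250 bases before the start were searched on both strands. This motif was chosen after the sequences had been read, so its presence is a description. The E box CANNTG was found in 61.8% of all promoter entries and the TC box TGGGAAA in 6.88%. Among the measured members CXCL8 held an E box, at 105 bases before its start, and CXCL1 and CXCL5 held neither of these 2 motifs in this window. A further sequence feature bears on the CXCL1 counts, because 4.57% of the 50-base stretches of its transcripts also occurred in CXCL2 and 0.457% in CXCL3, so CXCL1 may hold or lack a few reads of its relatives. No such stretch was shared between CXCL5 or CXCL8 and the other ELR chemokines tested.

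Library totals ranged from 17210989 to 43018494 counts over the listed genes. The replicates of a group differed by more than sampling noise, and Tet-One Dox replicate 1 stood apart from its group. Its deviation from the mean of the other 3 libraries was 0.587 on the log2 scale (SD over genes). The same measure was 0.219 to 0.244 for the other Tet-One Dox libraries, whose reference means include replicate 1. To a lesser extent Tet-MIST1 Dox replicate 1 also lay off its group, at 0.245 against 0.136 to 0.185. All 6 ductal or epithelial markers were listed, with a summed level of 1677 to 8285 CPM (counts scaled to a common library size) in a library. No endothelial marker was listed, the leukocyte genes PTPRC, CD3E, LYZ and CSF1R and the fibroblast genes DCN and LUM had no row, and the listed leukocyte markers were carried by the lysosomal gene CD68. PTF1A had 0 to 2 counts in the Tet-PTF1a Control libraries and 53 to 168 in the Tet-PTF1a Dox libraries. BHLHA15, which encodes MIST1, had a row in the Tet-PTF1a table alone, so the induced rat MIST1 was not read out here.

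CCL2 differed more between the lines than any other member. It stood near 4 CPM in Tet-One cells, near 32 CPM in Tet-PTF1a Control cells and at 85.4 CPM or more in every other library, and in Tet-PTF1a cells the Dox libraries reached the level that Tet-MIST1 cells held without Dox. In Tet-One Control the 4 libraries held 3.78, 4.56, 3.69 and 4.42 CPM of CCL2, and in Tet-One Dox they held 6.14, 3.64, 4.96 and 3.51 CPM. These 2 groups overlapped, and the highest value was that of the Dox library that stood apart. In Tet-MIST1 Control CCL2 held 154, 141, 120 and 135 CPM, and in Tet-MIST1 Dox 152, 85.4, 119 and 135 CPM. Here too the groups overlapped, with Dox replicate 2 the lowest. In Tet-PTF1a Control CCL2 held 29.8, 33.0, 33.3 and 33.4 CPM, and in Tet-PTF1a Dox 133, 133, 140 and 143 CPM. Every Tet-PTF1a Dox library lay above every Tet-PTF1a Control library, and the Dox replicates lay close together.

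**Figure D1:**
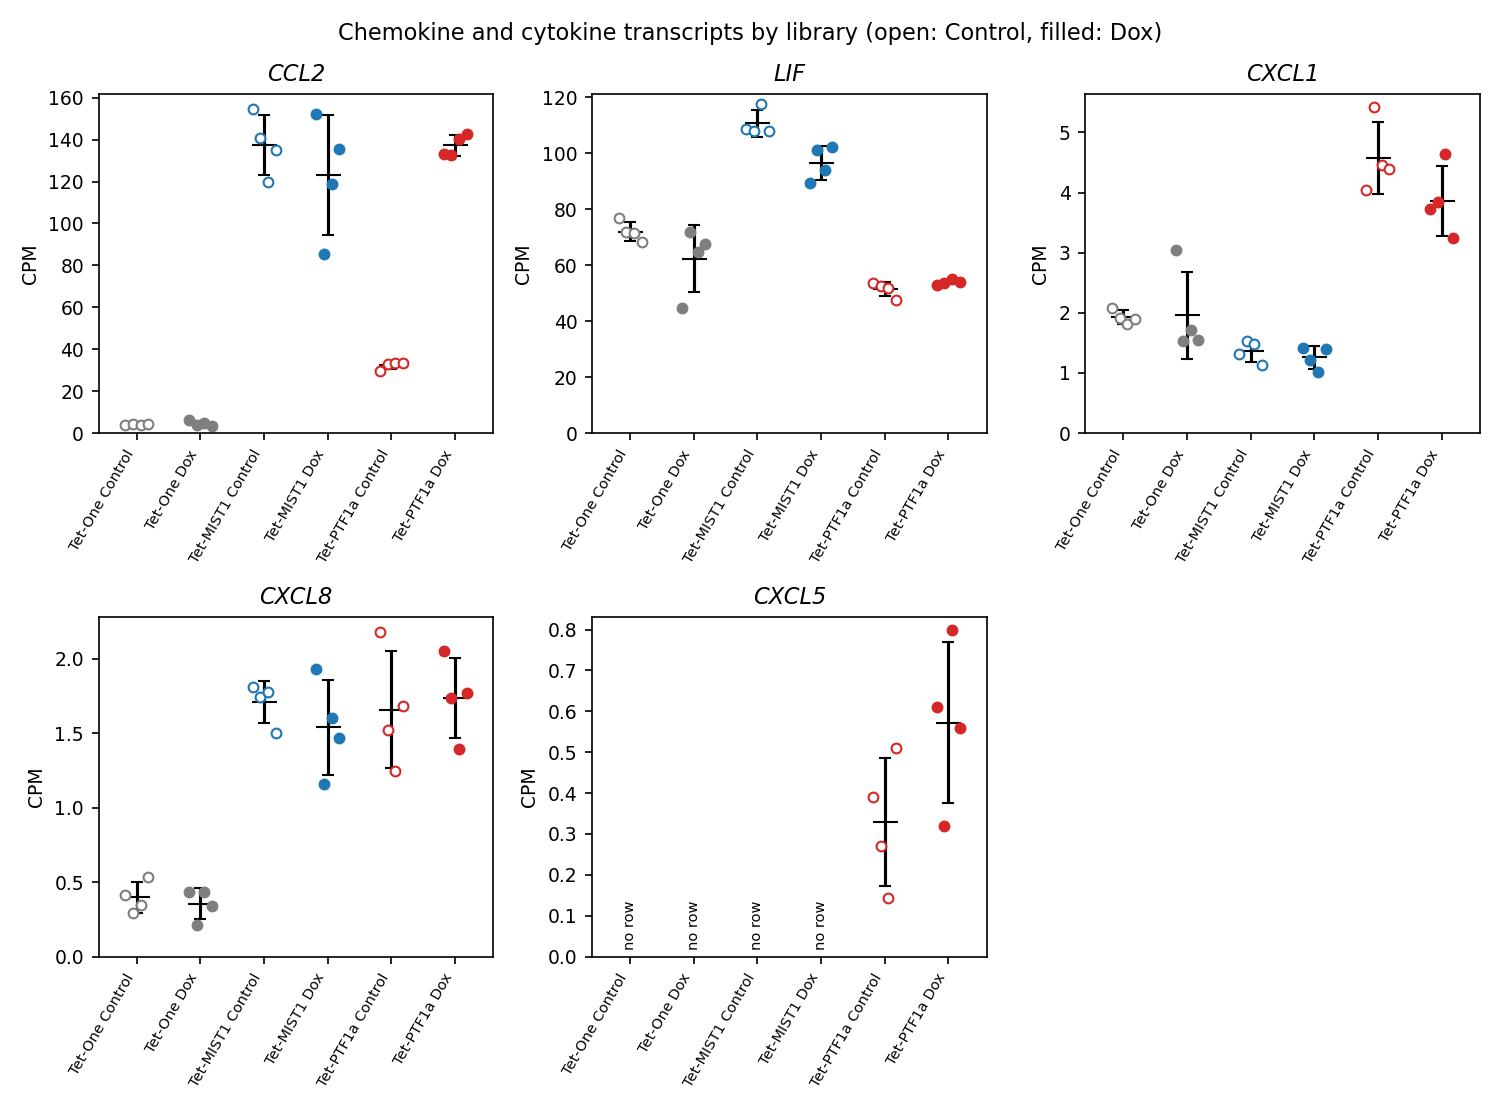
Level of each listed member in CPM (vertical axes, linear from 0) in the 4 libraries of each line and treatment (horizontal axis); open points are Control and filled points Dox libraries, and the black bar is the mean with its SD. CCL2 is near 4 CPM in Tet-One, between 29.8 and 33.4 CPM in Tet-PTF1a Control and between 133 and 143 CPM in Tet-PTF1a Dox, while CXCL5 has no row outside Tet-PTF1a.

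The gene for CCL2 occupies chromosome 17 from 32582296 to 32584220 on the plus strand of hg19, the build of the deposited tables. In Tet-PTF1a cells its level went from 32.4 ± 1.72 CPM (SD, n = 4) in Control to 137.2 ± 5.11 CPM (SD, n = 4) in Dox, a difference of 2.10 ± 0.0356 on the log2 scale (SE) and a fitted fold of 4.27. By the size of the increase CCL2 ranked 69 among the 14053 genes fitted in Tet-PTF1a. This is the value that chose the group of genes. It stayed between 2.04 and 2.13 on the log2 scale over all alternatives.

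Without Dox, CCL2 was 33.1-fold higher in Tet-MIST1 than in Tet-One cells, at 137.5 ± 14.3 against 4.11 ± 0.442 CPM (SD, n = 4 each). The log2 difference of 5.05 ± 0.0930 (SE) passed the edgeR quasi-likelihood test with an FDR of 1.20e-14. In this comparison 80.2% of the 13825 genes tested were called, so a call by itself sets no gene apart, and the size is what distinguished CCL2, which ranked 26 by the increase. Among 12974 genes compared by their Control means, 20 had a larger increase from Tet-One to Tet-MIST1 than CCL2, and decreases were not counted. Tet-PTF1a Control stood between both lines, 7.88-fold above Tet-One Control and with Tet-MIST1 Control 4.24-fold above it, and these values carry no test. Ordered by mean, Tet-One Control and Tet-One Dox came lowest and overlapped, Tet-PTF1a Control followed without overlap, and Tet-MIST1 Dox, Tet-PTF1a Dox and Tet-MIST1 Control came highest and overlapped.

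Marker genes of cell types also differed between these groups. They are given as sums, which follow the most abundant genes, and the genes of a list did not all move together. Of the 6 ductal or epithelial markers, 2 were called higher and 4 lower with Dox in Tet-PTF1a, where 48.2% of all genes were called. In Tet-MIST1 Control against Tet-One Control 1 was higher and 5 lower, where 80.2% were called. Of the 3 listed leukocyte markers, 1 was higher and 2 lower with Dox in Tet-PTF1a. The summed level of the 6 ductal or epithelial markers was 5183 to 6068 CPM in Tet-One Control, 5502 to 8285 in Tet-One Dox, 1761 to 1891 in Tet-MIST1 Control, 1729 to 2211 in Tet-MIST1 Dox, 3353 to 3518 in Tet-PTF1a Control and 1677 to 1727 in Tet-PTF1a Dox. Of the leukocyte markers 3 of 7 were listed, and their sum ran from 105 to 116 CPM in Tet-One Control, 252 to 258 in Tet-MIST1 Control, 61.8 to 67.3 in Tet-PTF1a Control and 30.6 to 35.5 in Tet-PTF1a Dox, with the defining gene PTPRC not listed. Of the fibroblast and stellate cell markers 3 of 5 were listed, and their sum was 114 to 139 CPM in Tet-One Control, 65.1 to 70.5 in Tet-MIST1 Control, 145 to 153 in Tet-PTF1a Control and 62.6 to 64.7 in Tet-PTF1a Dox, with DCN and LUM not listed. Of the acinar markers, which include PTF1A and BHLHA15, 3 of 6 were listed in Tet-PTF1a, and their sum went from 0.144 to 0.543 CPM in Control to 6.43 to 10.4 CPM in Dox. The Control sums were near the floor, so the 3 genes had rows mainly through the Dox libraries. The sum includes PTF1A, whose mouse form was induced, and whether reads of that form were counted there was not tested. The part of these differences in the CCL2 result was not tested, and in such bulk samples fewer cells of a type and less RNA per cell cannot be told apart.

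A Dox difference of CCL2 was not detected in Tet-One or Tet-MIST1 cells. In Tet-One cells the log2 difference was 0.15 ± 0.185 (SE), with a 95% interval from -0.27 to 0.57 and an edgeR FDR of 0.897. Without Tet-One Dox replicate 1 it was -0.02 and its FDR 0.96. In Tet-MIST1 cells it was -0.17 ± 0.140 (SE), with a 95% interval from -0.47 to 0.14 and an FDR of 0.411. The difference between the Tet-MIST1 and Tet-One responses was -0.32 ± 0.257 (SE, FDR 0.762), and -0.14 without Tet-One Dox replicate 1.

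LIF, a cytokine of the interleukin-6 family, was the other abundant member, and it followed a different order. By group mean it was highest in Tet-MIST1 cells, intermediate in Tet-One cells and lowest in Tet-PTF1a cells. The Tet-MIST1 Control libraries held 109, 108, 118 and 108 CPM, and the Tet-MIST1 Dox libraries held 89.3, 101, 94.0 and 102 CPM. Every Dox library of Tet-MIST1 lay below every Control library. The Tet-One Control libraries held 76.7, 71.8, 71.4 and 68.2 CPM of LIF, and the Tet-One Dox libraries held 44.8, 72.0, 64.7 and 67.7 CPM. The groups overlapped, with the library that stood apart the lowest. In Tet-PTF1a the Control libraries held 53.6, 52.7, 51.9 and 47.7 CPM and the Dox libraries 53.1, 53.8, 55.1 and 53.9 CPM. These groups overlapped and lay below all Tet-One Control libraries.

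The gene for LIF lies on chromosome 22 from 30636436 to 30642840 on the minus strand. LIF was the member that passed the test with Dox in Tet-MIST1 cells, where it fell by 0.20 on the log2 scale (SE 0.0554, edgeR FDR 0.0266), from 110.7 ± 4.73 to 96.7 ± 6.06 CPM (SD, n = 4 each). It was 1 of 4 members tested, against 20.6% of the 13623 genes tested in Tet-MIST1 that were called (11.9% higher and 8.77% lower), so the share of members called did not stand far from that of all genes. The direction held in all alternatives, but the call did not: the FDR was 0.0634, 0.0501 and 0.0965 without Tet-MIST1 Control replicate 1, 2 or 3, and 0.0687 without Tet-MIST1 Dox replicate 3. Without Tet-MIST1 Dox replicate 1, which held the least LIF of its group, the log2 difference was -0.16 (FDR 0.00965). The decrease was not shown to differ from that in Tet-One, since LIF in Tet-One cells differed by -0.21 ± 0.139 on the log2 scale (SE, FDR 0.897) and the difference between the 2 responses was 0.00 with a 95% interval from -0.33 to 0.33 (FDR 1.00). Without Tet-One Dox replicate 1 the Tet-One value was -0.08 and the difference between responses -0.12.

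In Control cells LIF was 0.62 ± 0.0423 higher on the log2 scale (SE, FDR 8.80e-11) in Tet-MIST1 than in Tet-One, a fold of 1.54. In Tet-PTF1a cells LIF differed by 0.07 between Dox and Control, at 51.5 ± 2.60 and 54.0 ± 0.828 CPM (SD, n = 4 each). Per kilobase of listed exon, the scale on which genes may be compared, CCL2 exceeded LIF in Tet-MIST1 Control, with 184 ± 19.1 against 27.9 ± 1.19 CPM per kilobase (SD, n = 4). In Tet-One Control the order was the opposite, with 5.51 ± 0.591 CPM per kilobase of CCL2 and 18.1 ± 0.886 of LIF.

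**Figure D2:**
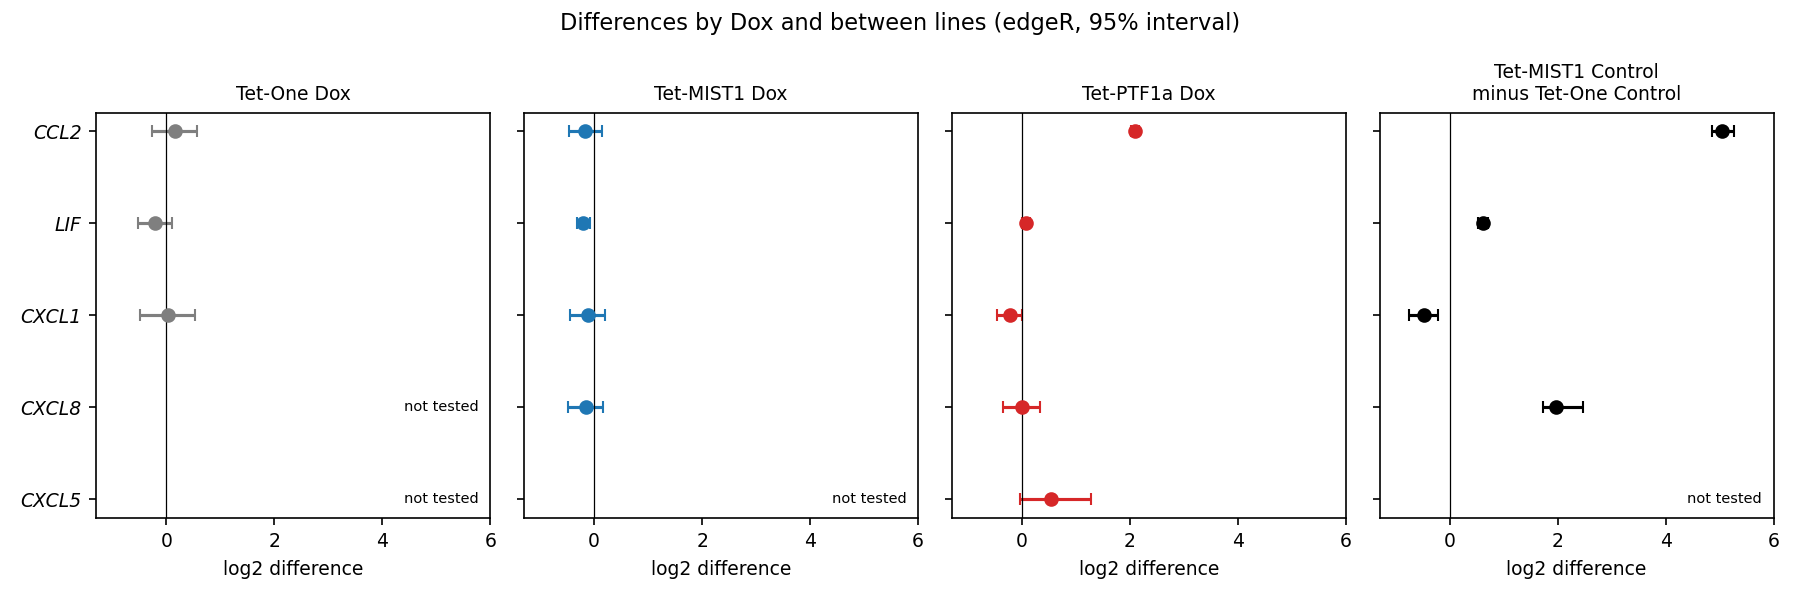
Log2 difference of each listed member (horizontal axes) with its 95% interval from edgeR, for Dox against Control in the 3 lines and for Tet-MIST1 Control against Tet-One Control. CCL2 lies at 2.10 in Tet-PTF1a and at 5.05 between the Control groups, while its intervals in Tet-One and Tet-MIST1 include 0; the Tet-PTF1a panel is a description with no test.

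The ELR chemokines were low in all lines. CXCL1, on chromosome 4 from 74735109 to 74737019 on the plus strand, was highest in Tet-PTF1a cells, at 4.04, 5.43, 4.45 and 4.39 CPM in Control and 3.72, 3.84, 4.64 and 3.24 CPM in Dox. The Tet-One libraries held 2.08, 1.92, 1.81 and 1.89 CPM in Control and 3.04, 1.54, 1.72 and 1.54 CPM in Dox. The Tet-MIST1 libraries held 1.31, 1.54, 1.47 and 1.14 CPM in Control and 1.42, 1.21, 1.02 and 1.40 CPM in Dox. Thus every Tet-PTF1a library lay above every library of the other lines, Control and Dox overlapped within each line, and 1 Tet-One Dox library, the one that stood apart, lay above its group.

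With Dox, CXCL1 differed by 0.03 ± 0.224 on the log2 scale (SE, FDR 0.969) in Tet-One and by -0.12 ± 0.148 (SE, FDR 0.561) in Tet-MIST1, and neither passed the edgeR test. Without Tet-One Dox replicate 1, the Tet-One value of CXCL1 was -0.26 and its FDR 0.439. The difference between the responses of CXCL1 was -0.16 (FDR 0.935), and 0.14 without that library. In Control cells CXCL1 was lower in Tet-MIST1 than in Tet-One by a log2 difference of -0.47 ± 0.126 (SE, FDR 0.00173). In Tet-PTF1a, CXCL1 differed by -0.23 between Dox and Control, at 3.86 ± 0.579 and 4.58 ± 0.594 CPM (SD, n = 4 each), with groups that overlapped.

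CXCL8, the interleukin-8 gene, on chromosome 4 from 74606223 to 74609433 on the plus strand, had 8 to 95 counts in a library. Tet-One libraries held 0.417, 0.293, 0.347 and 0.537 CPM in Control and 0.431, 0.216, 0.436 and 0.343 CPM in Dox, too low for the Dox comparison to be tested. Tet-MIST1 libraries held 1.81, 1.75, 1.78 and 1.50 CPM in Control and 1.93, 1.16, 1.60 and 1.46 CPM in Dox. Tet-PTF1a libraries held 2.18, 1.52, 1.25 and 1.68 CPM in Control and 2.05, 1.74, 1.40 and 1.77 CPM in Dox. All Tet-One libraries lay below all others, and the other 4 groups overlapped one another.

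Between the Control groups CXCL8 had a fitted log2 difference of 1.97 ± 0.178 (SE), higher in Tet-MIST1 than in Tet-One. Of the Tet-One Control libraries only replicate 4 was above the 0.5 CPM of the filter on low values, so this value is a description with no test. With Dox it differed by -0.15 ± 0.149 (SE, FDR 0.467) in Tet-MIST1, which did not pass the test. The fitted difference between the Tet-MIST1 and Tet-One responses was -0.02 ± 0.316 (SE), and 0.09 without Tet-One Dox replicate 1. It is a description with no test, since CXCL8 was too low in Tet-One. In Tet-PTF1a CXCL8 stood at 1.66 ± 0.393 CPM in Control and 1.74 ± 0.269 CPM in Dox (SD, n = 4 each), with a fitted log2 difference of 0.00 whose 95% interval ran from -0.35 to 0.34.

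CXCL5, which also draws neutrophils, lies on chromosome 4 from 74861359 to 74864446 on the minus strand and was at the edge of detection, with 3 to 20 counts in a library. The Tet-PTF1a Control libraries held 0.390, 0.271, 0.144 and 0.510 CPM and the Dox libraries 0.611, 0.320, 0.798 and 0.560 CPM. The groups overlapped, and the fitted log2 difference was 0.54 with a 95% interval from -0.03 to 1.28. Of the Control libraries only replicate 4 was above the 0.5 CPM of the filter on low values, against Dox replicates 1, 3 and 4. The filter thus favoured the direction of CXCL5. The 5 members fitted in Tet-PTF1a are not counted by call, since the CCL2 response there chose the members. In that line 48.2% of the 14053 genes tested were called (23.8% higher and 24.4% lower). Of the members tested in Tet-One, 0 of 3 were called, where 0 of 13428 genes were called by the edgeR test, 401 genes had an unadjusted p below 0.05 and 671 would be expected by that limit alone. For the difference between the responses of Tet-MIST1 and Tet-One, CCL2, CXCL1 and LIF were not called, where 1.66% of 13879 genes were (1.48% higher and 0.187% lower). Between the Control groups of these lines CCL2 and LIF were called higher in Tet-MIST1 and CXCL1 lower, where 39.5% of all genes were called higher and 40.7% lower, and CXCL8 is left out of that count because the filter decided its entry.

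The genes whose profile over the 24 libraries was most like that of CCL2 were identified. By the root mean square difference between log2 profiles, each centred on its own mean, the 5 nearest of 12973 genes were FILIP1L (0.539), PLXNA2 (0.546), KLHL14 (0.639), IL32 (0.644) and SHROOM2 (0.671), where the spread of CCL2 itself was 2.21. PLXNA2 encodes a semaphorin receptor, and IL32 a proinflammatory cytokine. From Control to Dox in Tet-PTF1a, PLXNA2 went from 4.11 to 9.33 CPM, KLHL14 from 16.3 to 18.3 and SHROOM2 from 1.64 to 1.98 (group means). The measure covers all 24 libraries, so a near profile need not include the Dox response of CCL2. IL32 held 0.771 CPM in Tet-One Control, 11.2 in Tet-MIST1 Control, 3.83 in Tet-PTF1a Control and 11.6 CPM in Tet-PTF1a Dox (group means), and FILIP1L 0.495, 17.5, 3.93 and 6.86 CPM in the same groups. The profile of LIF, with a spread of 0.43, was nearest to those of SLC5A6 (0.102), FURIN (0.106), DLG4 (0.107), SDC3 (0.108) and GGT7 (0.113), of which FURIN is a proprotein convertase and SLC5A6 a vitamin transporter.

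The receptor genes for the measured members were then examined. Of 14 receptor and antagonist genes, 5 were listed, all of the interleukin-6 and interleukin-1 systems, and CCR2, CXCR1 and CXCR2 were not analysed here. In Tet-PTF1a cells IL6R, LIFR, IL1R1 and IL6ST were lower with Dox and IL1RAP was higher, and in Tet-MIST1 cells IL1R1, IL6ST and IL6R were lower. Of all genes, 48.2% were called in Tet-PTF1a and 20.6% in Tet-MIST1. The median log2 difference of the 5 receptors was -0.28 in Tet-PTF1a and -0.26 in Tet-MIST1, against 0.00 over all genes in both lines.

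IL6R, the ligand-binding chain for interleukin-6, held 14.9, 14.8, 15.5 and 15.5 CPM in Tet-PTF1a Control and 5.72, 6.49, 5.64 and 5.34 CPM in Tet-PTF1a Dox. The groups were far apart, and IL6R fell by 1.38 on the log2 scale (SE 0.0723, edgeR FDR 2.41e-22). In Tet-MIST1 IL6R held 16.4, 16, 15.3 and 14.0 CPM in Control and 12.2, 13.0, 13.8 and 12.9 CPM in Dox. These groups did not overlap, and IL6R fell by 0.26 (SE 0.0650, FDR 0.0169), a call that was lost without Tet-MIST1 Control replicate 1 or 2 (FDR 0.0628 and 0.0534), in the fit blocked by replicate number (0.0552) and with all 24 libraries in one fit (0.0545). In Tet-One Dox IL6R differed by -0.02 (FDR 0.953).

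LIFR, the chain that binds LIF, held 108, 111, 99.4 and 108 CPM in Tet-PTF1a Control and 88.5, 83.5, 91.1 and 81.0 CPM in Tet-PTF1a Dox. The Dox libraries were all lower, by a log2 difference of -0.31 ± 0.0341 (SE, FDR 1.45e-09). Its level in Tet-MIST1 cells was 33.0 ± 1.28 CPM in Control and 32.2 ± 2.47 CPM in Dox (SD, n = 4 each), a difference of -0.04 (FDR 0.656). LIFR was also lower in Tet-MIST1 Control than in Tet-One Control, by a log2 difference of -0.97 (FDR 6.98e-13), opposite to its ligand LIF, which was higher there. IL6ST, the chain shared by LIF and IL6, changed little in Tet-PTF1a, with -0.09 on the log2 scale (SE 0.0278, FDR 0.00908), overlapping groups and an FDR of 0.0533 without Tet-PTF1a Dox replicate 4. In Tet-MIST1 IL6ST fell by 0.29 (SE 0.0663, FDR 0.0114), from 158 ± 9.97 to 130 ± 10.9 CPM (SD, n = 4 each), a call lost with all 24 libraries in one fit (FDR 0.112). In the same fit the IL6ST difference in Tet-PTF1a had an FDR of 0.668, and with library size alone 0.123.

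IL1R1, the signalling receptor for IL1A and IL1B, held 28.7, 25.3, 26.6 and 24.9 CPM in Tet-MIST1 Control and 15.7, 19.0, 19.9 and 19.9 CPM in Tet-MIST1 Dox. This was the largest receptor decrease in that line, at -0.51 ± 0.0797 on the log2 scale (SE, FDR 0.00135). In Tet-PTF1a IL1R1 went from 18.7 ± 1.10 to 15.4 ± 0.520 CPM (SD, n = 4 each), a log2 difference of -0.28 (FDR 3.90e-05), a call lost with all 24 libraries in one fit (FDR 0.0731). Its partner chain IL1RAP moved the other way in Tet-PTF1a, with 4.32, 4.34, 5.70 and 4.23 CPM in Control and 7.99, 8.31, 8.58 and 7.79 CPM in Dox, a log2 difference of 0.83 ± 0.0910 (SE, FDR 4.55e-11). In Tet-MIST1 IL1RAP differed by -0.04 (FDR 0.790).

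The Tet-MIST1 receptor decreases could be set against Tet-One only with reserve. None of the 5 receptors passed the test of the difference between the responses when all libraries were used, with -0.47 for IL1R1 (FDR 0.273), -0.24 for IL6R (FDR 0.587) and -0.14 for IL6ST (FDR 0.914). Without Tet-One Dox replicate 1, in which IL1R1, IL6R, IL6ST and LIFR were the lowest of their group, these differences were -0.60, -0.33 and -0.28, with FDR of 0.00161, 0.0246 and 0.0459. Over all genes, 231 were called for the difference between responses with all libraries and 1930 without that library. Tet-MIST1 Dox replicate 1 was the lowest of its group for IL1R1, IL6R and IL6ST. Without it the Dox differences in Tet-MIST1 were -0.43, -0.23 and -0.23 on the log2 scale. Each stayed called (edgeR FDR 5.96e-06, 0.0123 and 0.000745).

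**Figure D3:**
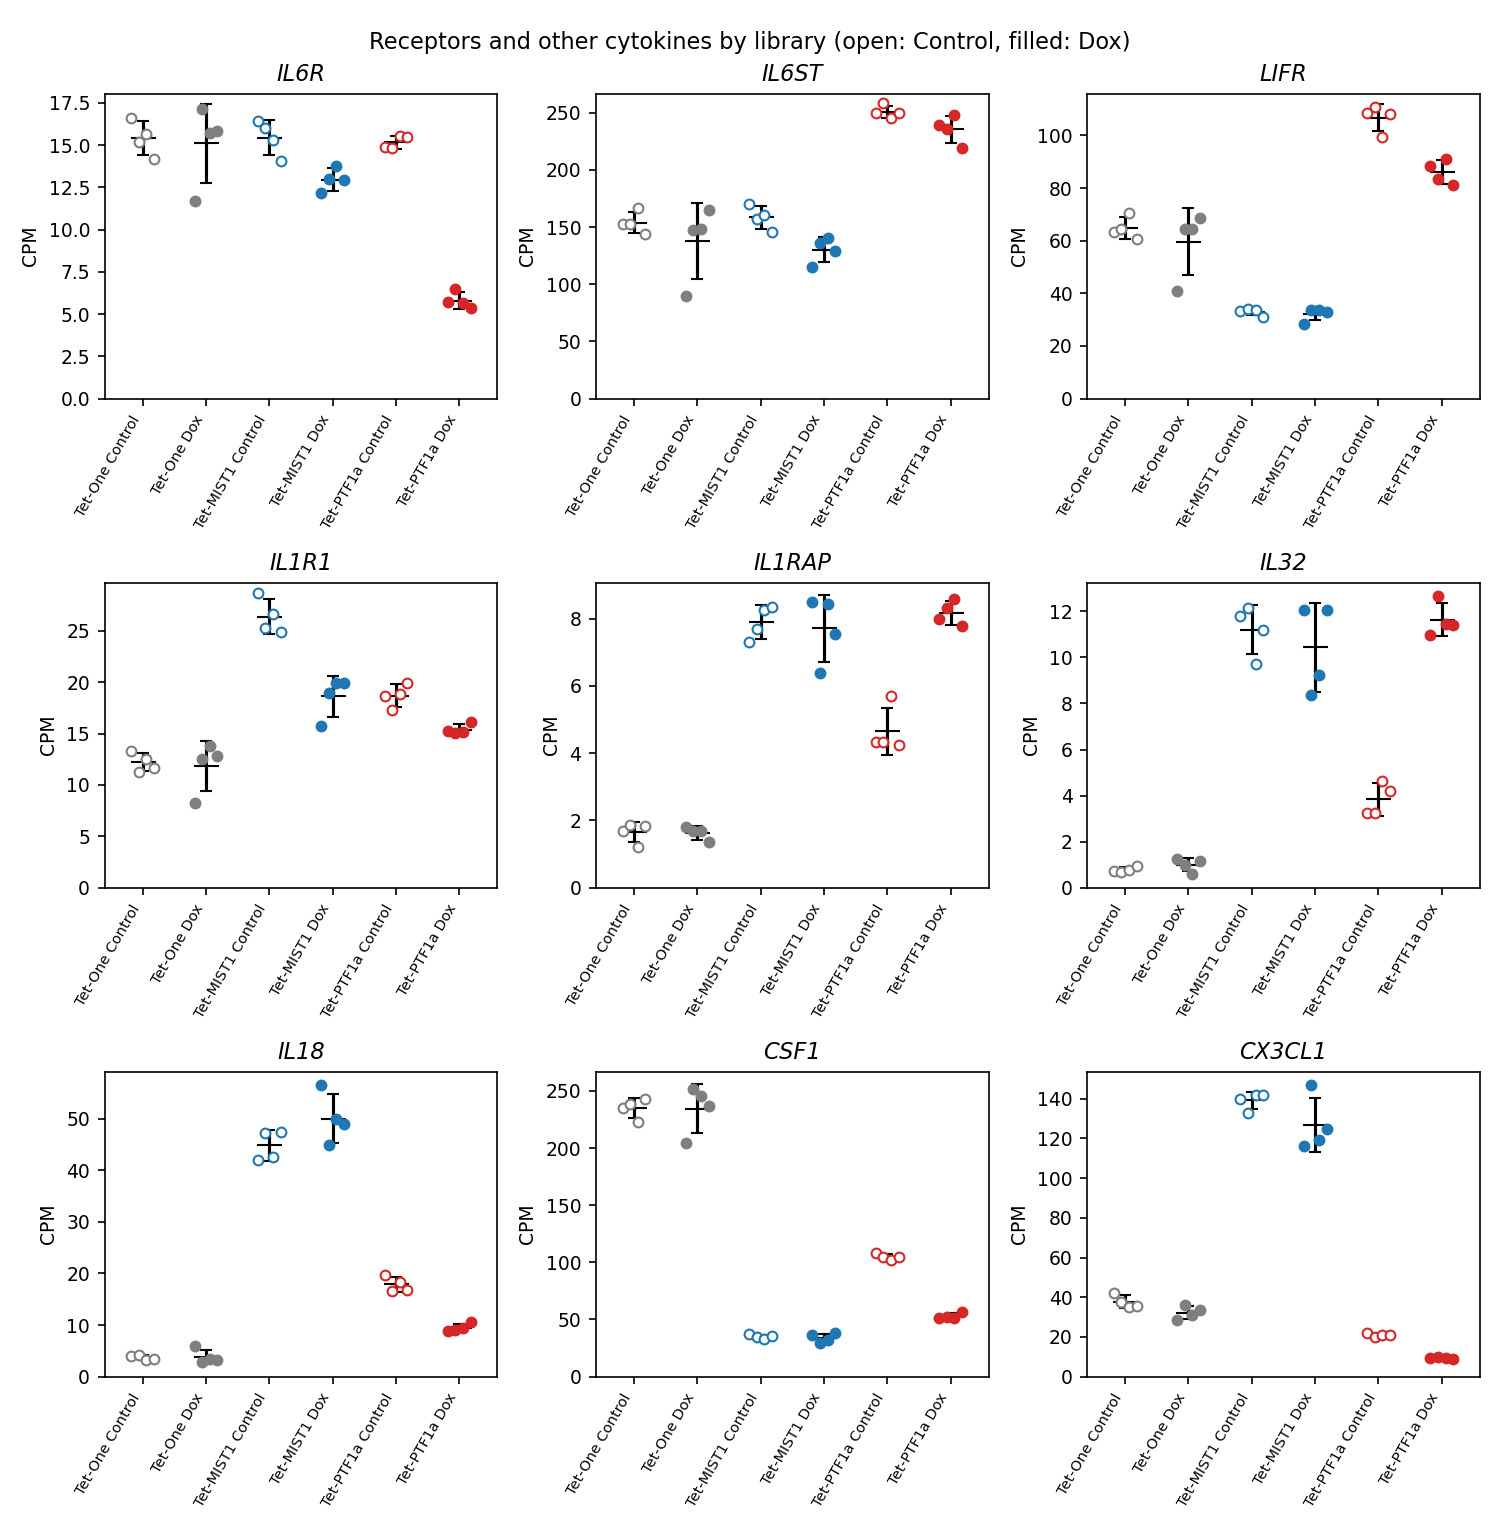
Level in CPM (vertical axes, linear from 0) of the 5 listed receptor genes and of IL32, IL18, CSF1 and CX3CL1 in the 4 libraries of each line and treatment; open points are Control and filled points Dox libraries, and the black bar is the mean with its SD. IL6R lies between 14.8 and 15.5 CPM in Tet-PTF1a Control and between 5.34 and 6.49 CPM in Tet-PTF1a Dox.

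Of 7 chemokines tested outside the 10 members, 4 fell with Dox in Tet-PTF1a, where 24.4% of all genes fell, and 2 rose. CX3CL1 (fractalkine, which binds CX3CR1) held 21.8, 20.1, 21.2 and 20.8 CPM in Control and 9.44, 9.87, 9.53 and 8.73 CPM in Dox, a log2 difference of -1.17 ± 0.0600 (SE, FDR 1.48e-22). CCL5, a chemokine of T cells, fell from 2.40 ± 0.130 to 0.967 ± 0.0660 CPM (SD, n = 4 each; log2 difference -1.24, FDR 4.88e-09), and CCL28 differed by -0.40 (FDR 3.53e-05). The genes that rose, CCL26 and CXCL12, stayed at or below 1.78 CPM in every library and are named because they were the only 2, with 1 to 4 counts of CCL26 in the Control libraries and 14 to 29 in the Dox libraries, and 5 to 13 and 18 to 57 counts of CXCL12. Both passed the filter on low values through the Dox libraries alone. The filter thus favoured their direction, and they are not set against the share of all genes that rose. In Tet-MIST1 none of the 4 chemokines tested was called, where 20.6% of all genes were.

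Of 11 other cytokines tested in Tet-PTF1a, 2 rose and 7 fell, where 23.8% of all genes rose and 24.4% fell. Their median log2 difference was -0.49 against 0.00 over all genes. IL32 rose alongside CCL2, from 3.24, 3.26, 4.65 and 4.18 CPM in Control to 11.0, 12.7, 11.5 and 11.4 CPM in Dox (log2 difference 1.60 ± 0.0906 SE, FDR 1.17e-20). The other was IL12A, at 0.74 (FDR 0.0275), whose call was lost without Tet-PTF1a Control replicate 1 or 4 (FDR 0.0900 and 0.170) or Tet-PTF1a Dox replicate 4 (FDR 0.179). CSF1, the growth factor of macrophages, held 108, 104, 102 and 105 CPM in Control and 51.3, 52.3, 51.1 and 56.9 CPM in Dox (log2 difference -0.97 ± 0.0326 SE, FDR 3.76e-30). IL18, an inflammasome product, fell from 17.9 ± 1.46 to 9.50 ± 0.769 CPM (SD, n = 4 each; log2 difference -0.90, FDR 4.43e-16). The LIF relatives CLCF1, IL11 and CTF1 fell too, with log2 differences of -0.68, -0.61 and -0.59 (FDR 2.05e-09, 2.74e-05 and 3.45e-05), whereas LIF itself was at 0.07. In Tet-MIST1, of 13 tested, MIF alone was called, where 20.6% of all genes were. The log2 difference of MIF was 0.30 there (edgeR FDR 0.0179) and -0.26 (FDR 8.18e-13) in Tet-PTF1a.

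The same genes were compared between the lines without Dox. Between Tet-MIST1 Control and Tet-One Control, IL32 (log2 difference 3.77, FDR 3.28e-16), IL18 (3.60, FDR 4.14e-18), CCL5 (2.61, FDR 1.07e-13), IL1RAP (2.22, FDR 3.09e-13) and CX3CL1 (1.89, FDR 2.45e-16) were higher in Tet-MIST1. CSF1 (-2.74, FDR 2.81e-20) and CCL28 (-1.21, FDR 6.15e-12) were lower. Of the cytokines outside the members 7 of 11 tested were higher and 2 lower, and of the chemokines 3 of 4 were higher and 1 lower, where 80.2% of all genes were called. The 7 include LTB and TNFSF10, which passed the filter on low values through the Tet-MIST1 libraries alone, so the filter favoured their direction.

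Genes of the NF-kappaB pathway, which lies upstream of most members, showed no common direction in Tet-PTF1a. Of 23 subunit, inhibitor and kinase genes, 7 rose and 5 fell, 52.2% against 48.2% of all genes. The subunits RELB and NFKB1 rose by log2 differences of 0.29 and 0.21 (FDR 0.000276 and 8.20e-07), RELA was at -0.05 (FDR 0.139), and NFKBIA, the inhibitor that NF-kappaB itself activates, fell from 30.0 ± 0.518 to 21.8 ± 1.12 CPM (SD, n = 4 each; log2 difference -0.45, FDR 1.09e-11). MAP3K14, the kinase of the non-canonical pathway, fell by 0.90 (FDR 4.03e-24). Of 11 other NF-kappaB target genes 4 rose and 5 fell, 81.8% against the same 48.2%. The complement gene C3, among the 4 that rose, held 0.322, 0.271, 0.431 and 0.587 CPM in Control and 5.05, 4.80, 5.09 and 4.66 CPM in Dox (fitted log2 difference 3.33 ± 0.174 SE). Of its Control libraries only replicate 4 was above the 0.5 CPM of the filter on low values, so the filter favoured its direction. PLAU, the urokinase gene, rose by 1.09 (FDR 2.39e-38). The adhesion gene ICAM1 and the pentraxin PTX3 fell, with log2 differences of -0.53 and -1.48 (FDR 2.70e-18 and 1.89e-12).

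In Tet-MIST1, where 20.6% of all genes were called, 1 of the 23 NF-kappaB genes rose and 2 fell, with NFKBIE, an inhibitor, at 0.38 (FDR 0.00508), and of 10 target genes 1 was called, CD83, at -0.18 (FDR 0.0497), a call lost when any library but Tet-MIST1 Dox replicate 1 was left out (FDR 0.0690 to 0.147). Among the genes of interleukin-1, Toll-like and TNF receptor signalling, 4 rose and 3 fell of 23 tested (30.4% against 20.6%), with the adaptors TRADD at 0.47 (FDR 0.00329) and MYD88 at 0.23 (FDR 0.0131). In Tet-PTF1a 4 rose and 9 fell of 21 (61.9% against 48.2%), among them the receptors TNFRSF1A (-0.74, FDR 2.57e-21) and TNFRSF1B (-0.75, FDR 0.000467) and the kinase IRAK2 (-0.81, FDR 8.35e-17).

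Downstream of LIF and IL6, 8 of 25 JAK, STAT and SOCS genes rose and 9 fell in Tet-PTF1a, 68% against 48.2%. SOCS1, a feedback inhibitor of JAK kinases, rose from 0.678 ± 0.0987 to 1.69 ± 0.0642 CPM (SD, n = 4 each; log2 difference 1.18, FDR 3.37e-07), while SOCS2 fell by 0.74 (FDR 1.41e-19) and STAT5A by 0.59 (FDR 5.87e-16). In Tet-MIST1 0 of 24 rose and 2 fell, PIAS3 at -0.21 (FDR 0.00963) and PTPN11 at -0.24 (FDR 0.0174), of which PTPN11 lost its call without Tet-MIST1 Control replicate 1 or 3 (FDR 0.0607 and 0.0536). Over all lists other than the members, 64.8% of 142 genes tested in Tet-PTF1a were called, against 48.2% of all genes. Of the 142, 35 were higher and 57 lower. The 35 include CCL26, CXCL12 and C3, which passed the filter on low values mainly through the Dox libraries. In Tet-MIST1 19.9% of 141 were called, 12 higher and 16 lower, against 20.6%. In Tet-One 0 of 132 were called, with or without Dox replicate 1.

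**Figure D4:**
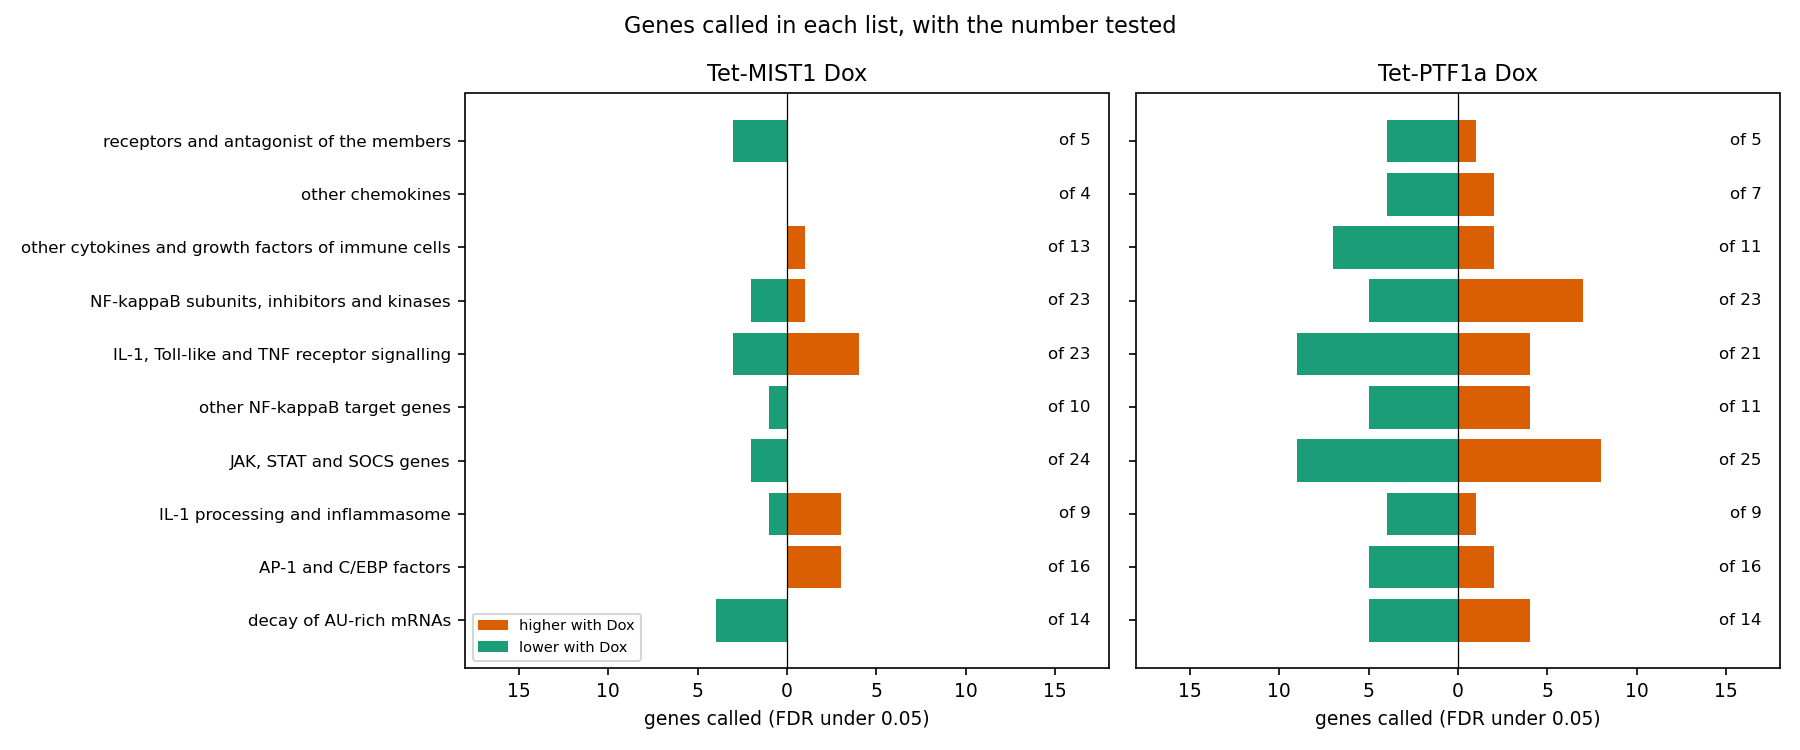
Number of genes called at an FDR under 0.05 (horizontal axes, higher with Dox to the right and lower to the left) in each gene list, with the number tested, for Tet-MIST1 and Tet-PTF1a. The receptor list has 3 lower genes of 5 in Tet-MIST1, where 20.6% of all genes were called. It has 4 lower and 1 higher of 5 in Tet-PTF1a, where 48.2% were.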

How the data were processed

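The authors aligned paired-end Illumina reads to hg19 with TopHat and deposited read counts per gene, with genes kept above 0.5 CPM in at least 4 samples. HTSeq, DESeq and edgeR are named in the submitters' processing notes, with no versions, and how reads were counted, including strand, is not given in the sources used here. The authors also deposited a scaled CPM signal and their own comparison columns (log2 fold change, p-value, FDR), which were not used. The deposited counts were tested here with edgeR 4.0.16 in R 4.3.3 (quasi-likelihood test, TMM factors, robust estimation, genes above 0.5 CPM in at least 4 libraries, prior count 2, Benjamini-Hochberg over all genes tested, called at an FDR under 0.05). SE and 95% intervals come from the same fits. CPM values printed here use the library totals over the 13519 genes listed in all tables, with TMM factors over 24 libraries. They were 96.5 to 103% of the deposited CPM signal.

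Groups came from the sample titles. Same-numbered Control and Dox libraries did not deviate together (correlations of -0.267 to 0.194), so no pairing was used. Of 200 genes changed by a log2 difference of 1 in simulated counts, 97.0 to 100% were recovered in each comparison, and 2.96 to 6.1% of calls were false. All simulated libraries had the same dispersion, none stood apart like Tet-One Dox replicate 1, and only genes above 1 CPM were changed. These shares therefore do not give the power in Tet-One, for the difference between responses or for low genes. From each gene list, up to 3 genes per direction were named by the size of the change among those called, above 1 CPM and without overlap. The members and lists were chosen with earlier results of these data known. Library totals of 17210989 to 43018494 counts limit the precision for CXCL1, CXCL5 and CXCL8. Alternatives were DESeq2 1.42.0, other scalings, filters, tests and fits, and each library left out.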

Additional observations from a re-analysis of the deposited data

Results flagged for a closer look

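Among the members, 3 libraries lay far from the rest of their group of 4, with a gap to the nearest library, as a share of the group's range, above the 95% critical value of Dixon's test. In Tet-PTF1a Control replicate 1, CCL2 was 29.8 CPM against 33.0 to 33.4 CPM in the others (0.876 of the range). In Tet-One Dox replicate 1, CXCL1 was 3.04 CPM against 1.54 to 1.72 CPM (0.880). In Tet-MIST1 Control replicate 3, LIF was 118 CPM against 108 to 109 CPM (0.908).

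The same limit was passed in 13 groups of other named genes, 16 of 174 groups in all, where chance flags about 1 in 20. The shares of the range were 0.927 for IL1RAP (Tet-PTF1a Control replicate 3), 0.961 for CCL5 (Tet-PTF1a Dox replicate 2), 0.842 for IL1R1 (Tet-PTF1a Dox replicate 4), 0.882 for BCL3 (Tet-PTF1a Control replicate 3), 0.866 for CAPN1 (Tet-PTF1a Control replicate 4), 0.943 for TNFAIP2 (Tet-PTF1a Control replicate 2) and 0.851 for STAT5A (Tet-PTF1a Control replicate 4). They were 0.858 for SOCS1 (Tet-PTF1a Dox replicate 2), 0.833 for ZC3H12A (Tet-PTF1a Dox replicate 3), 0.850 for CAPN2 (Tet-MIST1 Control replicate 1), and 0.891 for CD83, 0.901 for PTPN11 and 0.924 for TRAF1 in Tet-MIST1 Dox, at replicate 2, replicate 1 and replicate 2.

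The response to Dox differed between Tet-MIST1 and Tet-One in the edgeR test for ATF3, a stress-induced AP-1 factor, with a log2 difference of 1.51 (FDR 0.000483), and for CASP4, an inflammatory caspase, with 0.59 (FDR 0.000630). ATF3 was at 0.76 in Tet-MIST1 and -0.76 in Tet-One, and CASP4 at 0.45 and -0.15. The Tet-One values were not called, since 0 of 13428 genes were called there. Other genes differed in sign between Tet-MIST1 and Tet-PTF1a with Dox and Control libraries apart in both lines, and this difference was not tested. GSDMD, the pore-forming target of inflammatory caspases, was at 0.28 in Tet-MIST1 and -0.56 in Tet-PTF1a, JUND at 0.32 and -0.62, ZC3H12A at 0.19 and -0.35, MIF at 0.30 and -0.26, MYD88 at 0.23 and -0.16, NFKB1 at -0.11 and 0.21, PTPN11 at -0.24 and 0.13, and ELAVL1 at -0.07 and 0.11.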

How the results depend on the processing

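Among the members, CCL2 kept its direction and its side of the threshold between the Control groups (log2 difference 4.99 to 5.12 over 19 alternatives). The LIF decrease in Tet-MIST1 ranged from -0.23 to -0.16 and lost its call in 7 of 19 alternatives, so the count of members called there was 0 with the replicate number as a block (FDR 0.0721), with all 24 libraries in one fit (FDR 0.171) and with a log2 difference of at least 1, and 0 to 1 with a library left out. Same-numbered libraries shared only a number. The block left 1463 genes called in Tet-MIST1 (main count 2812) and 83 for the difference between responses (231). Between the Control groups 2 members instead of 4 passed with a log2 difference of at least 1, CXCL8 being in both counts.

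Small differences changed sign, none of them called. CXCL1 in Tet-One was -0.0083 with library size alone, -0.0142 with the replicate block and -0.2591 to 0.12 with a library left out. CCL2 in Tet-One was -0.0232 to 0.2545 with a library left out. CXCL8 in Tet-PTF1a was 0.0319 with library size alone, 0.0281 with DESeq2, 0.0636 with the replicate block, 0.0101 with all 24 libraries in one fit, and -0.0894 to 0.181 with a library left out. The difference between the Tet-MIST1 and Tet-One responses of LIF was 0.0165 with library size alone, 0.0008 with upper quartile scaling, 0.0184 with the replicate block, 0.0136 with all 24 libraries in one fit, and -0.1156 to 0.0776 with a library left out. That of CXCL8 was 0.0043 with library size alone and -0.1768 to 0.0949 with a library left out, and that of CXCL1 -0.2532 to 0.1419.

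With a library left out, Tet-One had 0 to 1 genes called, Tet-MIST1 1436 to 3770 and Tet-PTF1a 6109 to 6456, and the difference between responses 144 to 1930, the highest without Tet-One Dox replicate 1. All 24 libraries in one fit gave 1705 genes in Tet-MIST1, 3131 in Tet-PTF1a (main count 6775) and 530 for the responses. A log2 difference of at least 1 left 55, 501 and 48, and 2361 of 11088 between the Control groups. DESeq2 gave 499 and the likelihood ratio test 352 genes for the responses. Counts of members called in Tet-PTF1a are left out, since the CCL2 response there chose the members. The cause of these changes was not tested. Of the genes named by the rule, 10 of 24 in Tet-MIST1 (CTSS, IL6R, CAPN2, CD83, KHSRP, PTPN11, ZFP36, TRAF1, PARN, MAP3K7) and 3 of 50 in Tet-PTF1a (DDIT3, CEBPA, TIAL1) lost their call without at least 1 library (FDR up to 0.160). CXCL5 and CXCL8 rest on few counts, so small changes in them were not detectable at this depth.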

Other observations

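AP-1 and C/EBP factors bind many cytokine promoters. In Tet-MIST1, 3 of 16 were called with Dox (18.8% against 20.6% of all genes) and all 3 rose, ATF3 by 0.76, JUNB by 0.35 and JUND by 0.32 on the log2 scale (edgeR FDR 0.000249, 0.00403 and 0.00505). ATF3 held 4.00, 4.66, 3.96 and 4.75 CPM in Tet-MIST1 Control and 8.30, 6.96, 6.68 and 7.62 CPM in Tet-MIST1 Dox, and the groups did not overlap. In Tet-PTF1a, 2 of 16 rose, MAFF by 0.81 (FDR 7.96e-14) and CEBPA by 0.29 (FDR 0.0326), and 5 fell (43.8% against 48.2%), among them FOSL1 (-0.60, FDR 5.10e-23), JUND (-0.62, FDR 3.31e-18) and DDIT3 (-0.64, FDR 0.0224). The calls of CEBPA and DDIT3 were lost without single libraries, CEBPA without Tet-PTF1a Control replicate 1 or 3 or Dox replicate 1, 3 or 4 (FDR 0.0501 to 0.0830) and DDIT3 without any of the Dox libraries (FDR 0.0502 to 0.0596).

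Cytokine mRNAs are short-lived because proteins bind their AU-rich elements, and of 14 genes of that decay machinery 4 rose and 5 fell in Tet-PTF1a, 64.3% against 48.2% of all genes. ZFP36L1, a decay-promoting zinc-finger protein, was at -0.63 (FDR 5.02e-17), its relative ZFP36L2 at 0.19 (FDR 1.75e-06) and the endonuclease ZC3H12A at -0.35 (FDR 0.00690). Of 9 genes of interleukin-1 processing and the inflammasome, 1 rose and 4 fell in Tet-PTF1a (55.6% against 48.2%), with CTSS at 0.96 (FDR 1.75e-05), PYCARD at -0.36 (FDR 4.58e-06) and GSDMD at -0.56 (FDR 1.29e-10). In Tet-MIST1, 3 of the 9 rose and 1 fell (44.4% against 20.6%), with CASP4 at 0.45 (FDR 0.000102) and GSDMD at 0.28 (FDR 0.00881).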
